A study of Mus musculus with 4 samples.

Results

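The 10 genes described here, Postn, Cthrc1, Fn1, Spp1, Tnc, Lox, Loxl2, Acta2, Meox1 and Thbs4, are markers of activated fibroblasts and of scar tissue. They were taken by symbol from the 23282 gene rows of the mouse heart data, and each symbol stood on a single row. The study asked how high-intensity treadmill running acts on tissues of healthy and of cancer-bearing mice, and 1 heart mRNA-seq library represented each of 4 groups of male CDF1 mice. E-&T- mice were neither exercised nor given cancer cells, E+&T- mice ran on a treadmill, E-&T+ mice received CT26 cells, a mouse colorectal cancer line, through the tail vein, and E+&T+ mice had both. The labels give the age of every heart sample as postnatal day 28, the age at which the mice were bought according to the methods, which give 10 mice for each group. Tissue was collected at the end of the experiment per the methods, so the hearts were older than day 28. Their age at collection is not stated. The strain is common to all groups and no transgene was used. For the gastrocnemius muscle the study reports sequencing a representative mouse of each group, and it calls the heart analysis similar. For the heart itself the sources do not say whether a library came from 1 mouse or from a pool. Nor do they say whether the sedentary, cancer-free mice received a mock injection. With 1 library per group, no difference between groups has a replicate error and none was tested.

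Fibroblasts of the healthy heart maintain the collagen network between the cardiomyocytes. After injury or overload, TGF-beta signals and mechanical tension turn part of them into activated fibroblasts and myofibroblasts, which secrete collagens, fibronectin and matricellular proteins (secreted proteins that act on cells rather than bearing load), crosslink the matrix and build contractile stress fibres. Several of the 10 genes have other sources in the heart as well. Acta2 is a main actin of the smooth muscle of vessels, Spp1 is made by macrophages, and Fn1 by endothelial cells and macrophages. In whole-heart RNA, fewer cells of a type and less RNA per cell cannot be told apart.

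The recovered depth was 6595401, 8477183, 9532819 and 11546014 reads in E-&T-, E+&T-, E-&T+ and E+&T+. Globin mRNAs took 7.86% to 8.76% of the reads in the first 3 libraries and 37.3% in E+&T+, so E+&T+ stood apart. All 8 cardiomyocyte markers examined were read in every library, and none of them differed 2-fold in any comparison of the deposited values. All 12 markers of quiescent fibroblasts were also read in every library, at a summed 3409 to 6626 RPM (recovered reads scaled to the library total). The 10 genes together took 0.0330%, 0.0734%, 0.0656% and 0.0314% of the reads in E-&T-, E+&T-, E-&T+ and E+&T+, with Acta2 supplying most of them.

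The promoter sequences show where these genes carry short motifs of the pathways that drive fibroblast activation. RefSeq sequences of GRCm38.p6, running from 250 bases before to 50 bases after a transcription start, were at hand for 5 of the 10 genes, as 8 promoters. Both strands were searched for GTCTGG, which contains the GTCT of the Smad-binding element, and for GGAATG, the core bound by TEAD factors. Also searched were the AP-1 site TGANTCA and the CArG box bound by serum response factor, in its strict form CCWWWWWWGG with W for A or T. GTCTGG or its reverse complement was found in 7 of the 8 promoters, at least once for each of the 5 genes, although both Tnc promoters overlap and share a single match, beside 17.9% of all 32851 promoters in the table. GGAATG or its reverse complement stood in 2 of the 8, those of Acta2 and Thbs4, beside 14.7% of all promoters. Neither TGANTCA, held by 7.81% of all promoters, nor the strict CArG form, held by 1.63%, was in any of the 8. This says only that those exact letters are not in these windows. Stretches that depart from the strict form by a letter were not counted, such as ccctatatgg and ccttgtttgg in the Acta2 promoter. In the 4 promoters shown, capitals mark the GTCTGG and the GGAATG motif and their reverse complements, and every sequence is written 5′ to 3′ on the strand of its gene. Tnc (chr4:64046887-64047186, minus strand) holds 1 GTCTGG starting at position -70 from its start site, Spp1 (chr5:104434861-104435160, plus strand) 1 at -33, and Acta2 (chr19:34255324-34255623, minus strand) GTCTGG at -235 and GGAATG at -146. In Thbs4 (chr13:92794769-92795068, minus strand), 2 overlapping CATTCC at -197 and -192 run straight into GTCTGG at -186. Matches of this length are a description of the sequence and were not tested for binding.
Tnc: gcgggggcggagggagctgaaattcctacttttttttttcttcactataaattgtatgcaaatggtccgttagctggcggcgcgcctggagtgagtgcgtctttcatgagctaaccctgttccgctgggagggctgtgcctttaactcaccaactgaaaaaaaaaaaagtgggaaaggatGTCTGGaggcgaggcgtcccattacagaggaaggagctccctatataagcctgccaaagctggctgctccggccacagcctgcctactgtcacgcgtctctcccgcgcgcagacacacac
Spp1: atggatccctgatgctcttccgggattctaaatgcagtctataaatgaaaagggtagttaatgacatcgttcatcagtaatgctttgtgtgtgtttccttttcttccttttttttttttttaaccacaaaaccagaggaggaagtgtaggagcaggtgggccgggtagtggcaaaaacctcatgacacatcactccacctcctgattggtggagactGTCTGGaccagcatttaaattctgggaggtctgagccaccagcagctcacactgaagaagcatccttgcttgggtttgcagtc
Acta2: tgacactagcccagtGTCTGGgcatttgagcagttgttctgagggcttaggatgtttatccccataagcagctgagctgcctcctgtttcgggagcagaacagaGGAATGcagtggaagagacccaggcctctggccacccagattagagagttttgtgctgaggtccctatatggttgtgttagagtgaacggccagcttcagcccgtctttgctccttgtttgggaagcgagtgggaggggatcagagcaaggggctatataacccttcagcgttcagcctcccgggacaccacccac
Thbs4: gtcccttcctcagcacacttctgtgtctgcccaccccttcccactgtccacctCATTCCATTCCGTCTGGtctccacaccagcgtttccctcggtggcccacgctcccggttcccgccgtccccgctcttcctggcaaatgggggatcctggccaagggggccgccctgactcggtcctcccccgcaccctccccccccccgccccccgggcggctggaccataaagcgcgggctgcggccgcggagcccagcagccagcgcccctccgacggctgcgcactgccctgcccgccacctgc

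Across the 4 libraries, most of the 10 genes were higher in the exercised tumor-free heart and the sedentary tumor heart than in E-&T-, and lower again in E+&T+. The highest library was E-&T+ for 6 genes (Cthrc1, Fn1, Spp1, Tnc, Lox and Loxl2), E+&T- for 3 (Postn, Acta2 and Meox1) and E+&T+ for Thbs4. The lowest library was E+&T+ for 5 (Postn, Cthrc1, Fn1, Tnc and Loxl2), E-&T- for 3 (Spp1, Lox and Acta2), E-&T+ for Meox1 and E+&T- for Thbs4. Values below are deposited log2 values, log2(normalized read count + 1), and a difference between libraries is a log2 fold change. Each interval is the 95% Clopper-Pearson interval of the ratio of the recovered reads, which covers counting error only. A gene was called past 2-fold where it differed by 2-fold or more and 1 or both of the compared libraries had a normalized read count of 4 or more, and all 10 genes met that count in each comparison. QuantSeq reads come from the 3′ end of transcripts and the values are not divided by length, so each gene is compared only with itself.

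**Figure D1:**
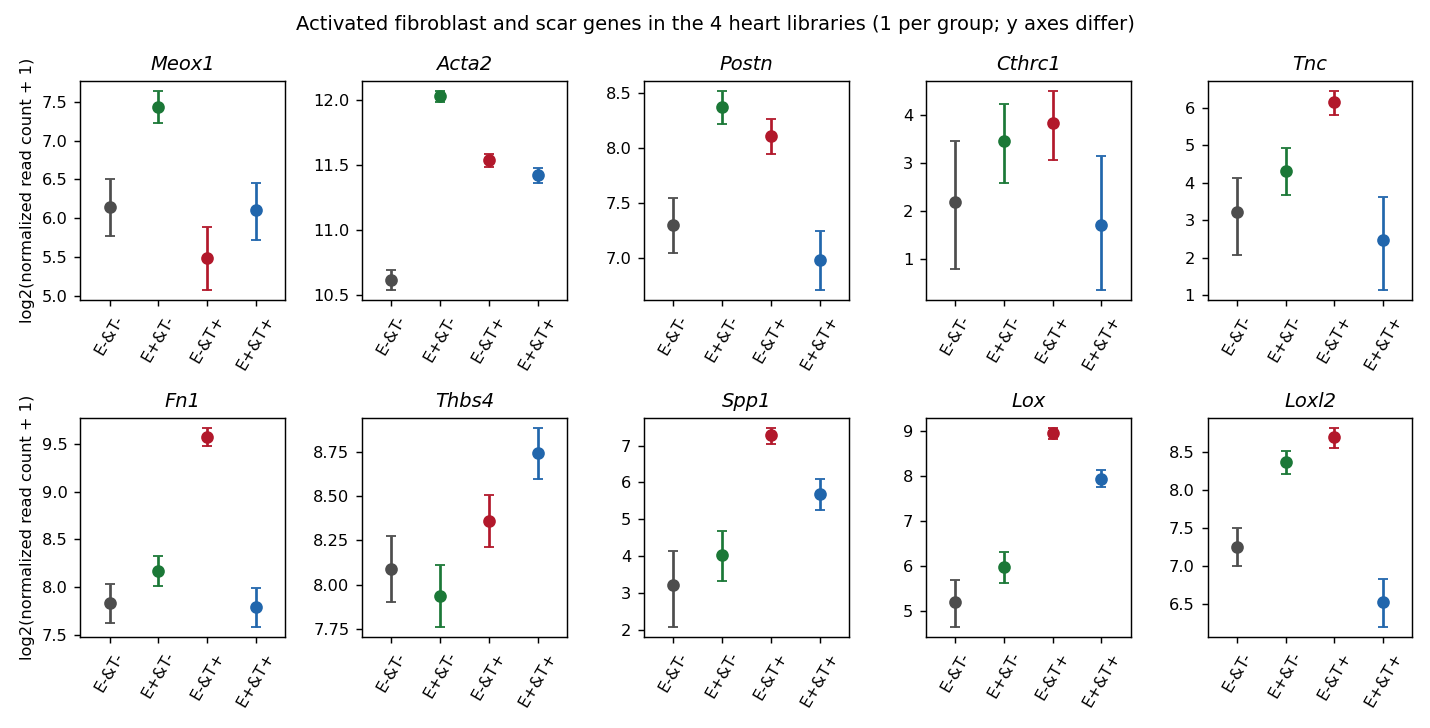
Deposited log2 values of the 10 genes in the 4 heart libraries, 1 point per library, with bars for the 95% Poisson interval of the recovered reads on the same scale (counting error only). E-&T+ is the highest library for 6 genes and E+&T+ the lowest for 5, and each panel has its own y axis.

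Meox1 (chr11:101877510-101894374, minus strand, here and below in mm10 with GENCODE M21) encodes a homeobox transcription factor that drives fibroblast activation in the stressed heart. Its log2 value was 6.15, 7.44, 5.49 and 6.11 in E-&T-, E+&T-, E-&T+ and E+&T+, from 61, 190, 50 and 62 reads. E+&T- was the high library, E-&T+ was the low one, and E+&T+ differed from E-&T- by -0.04 (-0.58 to 0.49). Exercise without tumor gave a log2 fold change of 1.29 (interval 0.87 to 1.74) and tumor without exercise -0.66 (-1.23 to -0.10). The intervals of these opposite differences both excluded 0. Thbs4 also had opposite signs in them, and its interval for exercise without tumor included 0.

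Acta2 (chr19:34241090-34255590, minus strand) encodes smooth muscle alpha-actin, which vessel walls contain and myofibroblasts incorporate into stress fibres. It was at 10.61, 12.02, 11.53 and 11.42 in E-&T-, E+&T-, E-&T+ and E+&T+, with 1364, 4603, 3361 and 2498 reads. All 3 treated hearts were above E-&T-, and E+&T- was the highest. The log2 fold change was 1.41 (1.33 to 1.50) for exercise without tumor and -0.12 (-0.19 to -0.04) for exercise with tumor. Acta2 was the most deeply read of the 10 genes, and the intervals of its 4 comparisons all excluded 0.

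Postn (chr3:54361109-54391037, plus strand) encodes periostin, a matricellular protein widely used as a marker of activated cardiac fibroblasts. Its values were 7.30, 8.37, 8.11 and 6.99, from 137, 365, 312 and 115 reads in E-&T-, E+&T-, E-&T+ and E+&T+. Both hearts with a single condition were above both others. Exercise came with 1.07 (0.78 to 1.37) without tumor and with -1.12 (-1.45 to -0.82) with tumor, so that Postn was past 2-fold in opposite directions.

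Cthrc1 (chr15:39076932-39087121, plus strand) encodes a secreted protein of fibroblasts that make collagen in scars. It was little read, with 3, 11, 15 and 2 reads in E-&T-, E+&T-, E-&T+ and E+&T+, at log2 values of 2.19, 3.46, 3.85 and 1.72. The order of the libraries was that of most other members, with both single conditions above E-&T- and E+&T+. For exercise without tumor the fold change of 1.27 had an interval from -0.39 to 4.01, so a difference was not detectable at this depth. For exercise with tumor it was -2.13, with an interval from -5.77 to -0.49.

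Tnc (chr4:63959785-64047015, minus strand) encodes tenascin C, a matricellular protein scarce in the healthy adult heart that appears around injured muscle. There were 7, 21, 78 and 4 reads in E-&T-, E+&T-, E-&T+ and E+&T+, at 3.21, 4.32, 6.14 and 2.47. E-&T+ stood above the other libraries, and E+&T+ differed from E-&T- by -0.74 (-3.10 to 1.10). The fold change of exercise with tumor, -3.67 (-5.89 to -2.56), was the lowest of any member in any comparison. Without tumor it was 1.11 (-0.04 to 2.72), which was not separable from 0 by its reads.

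Fn1 (chr1:71585520-71653200, minus strand) encodes fibronectin, the early scaffold on which collagen fibres are laid down. Its values in E-&T-, E+&T-, E-&T+ and E+&T+ were 7.83, 8.17, 9.58 and 7.79, from 198, 317, 866 and 201 reads. E-&T+ was the high library, and E+&T+ differed from E-&T- by -0.05 (-0.34 to 0.24). Tumor without exercise gave 1.75 (1.53 to 1.98) and exercise with tumor -1.79 (-2.03 to -1.57).

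Thbs4 (chr13:92751590-92794818, minus strand) encodes thrombospondin 4, a matricellular protein induced in the overloaded heart, also in cardiomyocytes. It was the flattest member, at 8.09, 7.94, 8.36 and 8.74 in E-&T-, E+&T-, E-&T+ and E+&T+ (237, 270, 372 and 391 reads). No comparison reached 2-fold. Thbs4 was higher in E+&T+ than in E-&T+, by 0.38 (0.17 to 0.59), and higher than in E+&T-, by 0.81 (0.58 to 1.04). With reads scaled to library size these differences were -0.20 and 0.09, and E-&T+ was then the highest library.

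Spp1 (chr5:104435118-104441050, plus strand) encodes osteopontin, a secreted integrin and CD44 ligand of macrophages and activated fibroblasts. It had 7, 17, 174 and 46 reads in E-&T-, E+&T-, E-&T+ and E+&T+, at 3.22, 4.02, 7.28 and 5.68. Both libraries from mice given CT26 cells were above both libraries without. Tumor without exercise gave 4.06 (3.18 to 5.59), the highest fold change of any member in any comparison, and tumor with exercise 1.66 (0.88 to 2.61). Exercise with tumor gave -1.60 (-2.11 to -1.13), and E+&T+ was still 2.47 (1.49 to 4.04) above E-&T-.

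Lox (chr18:52516067-52529867, minus strand) encodes lysyl oxidase, the copper enzyme that starts the crosslinking of collagen and elastin. Its values were 5.20, 5.98, 8.96 and 7.94 in E-&T-, E+&T-, E-&T+ and E+&T+, from 31, 69, 562 and 224 reads. As with Spp1, the tumor libraries were both above the others. Tumor without exercise gave 3.76 (3.28 to 4.37) and tumor with exercise 1.96 (1.58 to 2.38), while exercise with tumor gave -1.02 (-1.25 to -0.79).

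Loxl2 (chr14:69609068-69695834, plus strand) encodes a second enzyme of that family, made by activated fibroblasts and acting on collagen IV among other substrates. It was at 7.25, 8.36, 8.69 and 6.52 in E-&T-, E+&T-, E-&T+ and E+&T+, with 132, 363, 467 and 83 reads. Unlike Lox, Loxl2 was lowest in E+&T+, at -0.73 (-1.15 to -0.33) against E-&T-. Its fold change was 1.11 (0.83 to 1.42) for exercise without tumor and -2.17 (-2.54 to -1.84) for exercise with tumor. Of the 50-base stretches in the last 400 bases of its annotated transcripts, 13.2% also occur in transcripts of other genes, so part of its reads may be assigned with less certainty. That share was 5.10% for Spp1, all with the gene model Gm42793, and 0.570% for Fn1, and it was 0 for the other 7. No other annotated gene covered the 3′ end of a member.

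In hearts without tumor, exercise came with higher values of these genes. Against E-&T-, 6 of the 10 genes were past 2-fold higher in E+&T- (Meox1, Acta2, Postn, Cthrc1, Tnc and Loxl2) and none was past 2-fold lower, beside 5.88% of all 13937 genes kept that were higher and 6.40% that were lower. Above 0 were 9 of the 10, and the median of the 10 was 1.09, beside 0.002 for all genes kept. Spp1 (0.80, -0.40 to 2.45) and Lox (0.78, 0.18 to 1.47) were higher by less than 2-fold, Fn1 by 0.33 (0.08 to 0.60), and Thbs4 was at -0.15 (-0.41 to 0.10). For 6 of the 10 genes the counting interval excluded 0.

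In hearts of mice given CT26 cells, exercise came with lower values. Against E-&T+, 7 of the 10 genes were past 2-fold lower in E+&T+ (Postn, Cthrc1, Tnc, Fn1, Spp1, Lox and Loxl2) and none was past 2-fold higher, beside 9.39% of all 14363 genes kept that were higher and 10.0% that were lower. The median of the 10 was -1.36, beside -0.01 for all genes kept. Meox1, at 0.62 (0.06 to 1.19), and Thbs4 were the members above 0, and with reads scaled to library size they were at 0.03 and -0.20. All 10 intervals excluded 0.

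Both exercise comparisons use different libraries, and 9 of the 10 genes had opposite signs in them. For 8 genes the value was higher with exercise without tumor and lower with exercise in the presence of tumor. Of these, 4, Postn, Cthrc1, Tnc and Loxl2, were past 2-fold both ways. The shares of all genes with these patterns were not computed, so the counts have no background beside them. Thbs4 is among the 9 by its deposited values, and with reads scaled to library size it was below 0 in both, at -0.17 and -0.20. The difference of the log2 fold changes, with tumor minus without tumor, ran from -4.78 for Tnc, -3.40 for Cthrc1 and -3.28 for Loxl2 to -0.67 for Meox1 and 0.54 for Thbs4, with a median of -2.16. With 1 library per group this difference could not be tested.

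**Figure D2:**
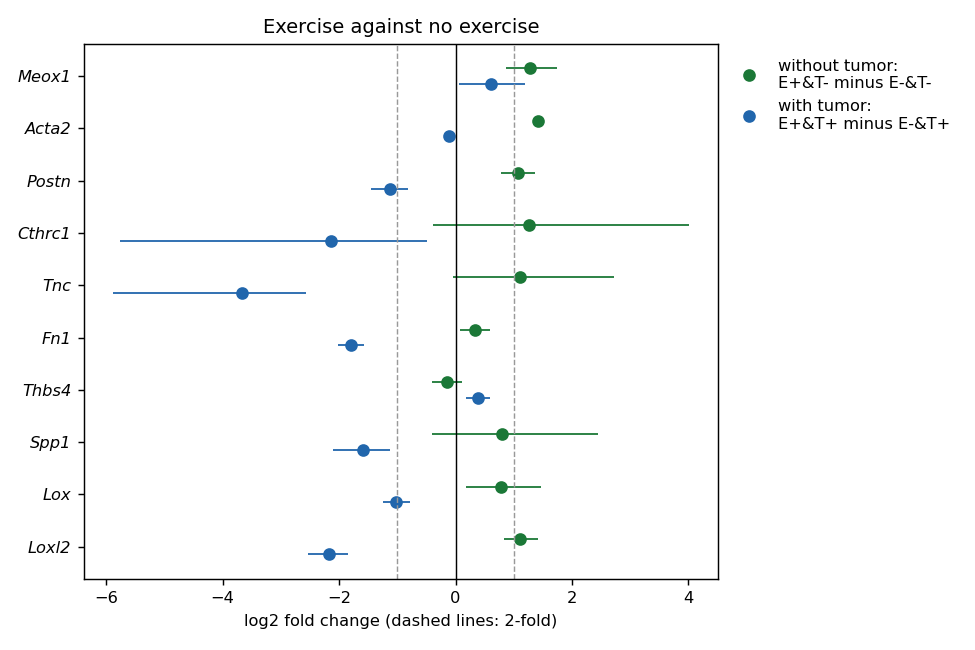
Log2 fold changes of the 10 genes with exercise, without tumor (E+&T- minus E-&T-, green) and with tumor (E+&T+ minus E-&T+, blue), with lines for the 95% counting interval and dashed lines at 2-fold. Green points lie to the right of 0 for 9 genes and blue points to the left of 0 for 8.

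In sedentary mice, CT26 cells came with higher values of most of the 10 genes, and with a lower value of Meox1, at -0.66 (-1.23 to -0.10). Against E-&T-, 6 of the 10 were past 2-fold higher in E-&T+ (Cthrc1, Tnc, Fn1, Spp1, Lox and Loxl2) and none was past 2-fold lower, beside 14.6% of all 14317 genes kept that were higher and 13.1% that were lower. The median was 1.55, beside -0.01 for all genes kept, and all 10 intervals excluded 0. Lox and Spp1 led, followed by Tnc at 2.93 (1.99 to 4.46). Loxl2 was at 1.44 (1.16 to 1.73), Cthrc1 at 1.66 (0.12 to 4.37), Acta2 at 0.92 (0.83 to 1.01), Postn at 0.81 (0.51 to 1.11) and Thbs4 at 0.27 (0.03 to 0.51). This comparison and that of exercise without tumor share the E-&T- library, so a low value of that library raises both. In the same way, exercise with tumor and tumor with exercise share E+&T+, so a low value of E+&T+ lowers both.

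In exercised mice the picture was divided. Against E+&T-, 2 of the 10 genes were past 2-fold higher in E+&T+ (Lox and Spp1) and 5 past 2-fold lower (Meox1, Postn, Cthrc1, Tnc and Loxl2), beside 12.0% of all 14289 genes kept that were higher and 11.1% that were lower. The median was -0.97, beside -0.01 for all genes kept. Loxl2 was at -1.84 (-2.22 to -1.51), Postn at -1.39 (-1.71 to -1.09), Meox1 at -1.33 (-1.78 to -0.92) and Tnc at -1.85 (-4.12 to -0.55). The interval of Cthrc1, at -1.75, ran from -5.40 to 0.01 and was the only one of the 10 to include 0. Acta2, at -0.61 (-0.68 to -0.54), and Fn1, at -0.38 (-0.65 to -0.12), were lower by less than 2-fold as deposited, and past 2-fold lower, at -1.33 and -1.10, with reads scaled to library size.

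**Figure D3:**
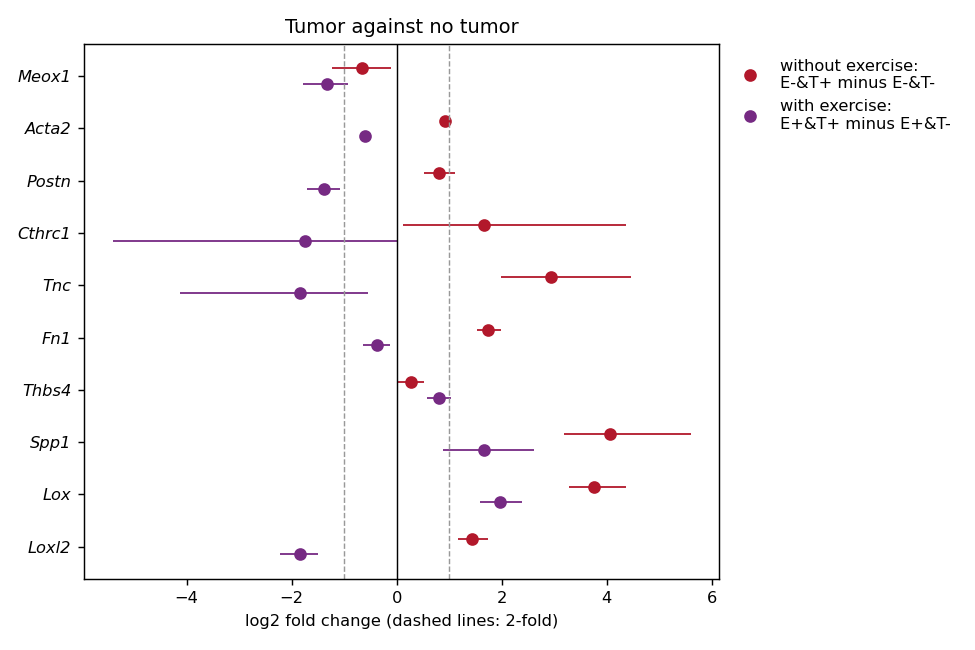
Log2 fold changes of the 10 genes with tumor, without exercise (E-&T+ minus E-&T-, red) and with exercise (E+&T+ minus E+&T-, purple), with lines for the 95% counting interval and dashed lines at 2-fold. Spp1 and Lox lie past 2-fold higher in both, while Postn, Cthrc1, Tnc and Loxl2 are right of 0 without exercise and left of 0 with it.

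Scaling mattered for the comparisons that use E+&T+, the library rich in globin. Scaled to library size, the median of all genes was -0.60 for exercise with tumor and -0.74 for tumor with exercise, with 3.81% of genes higher and 25.6% lower in the first and 5.62% higher and 35.3% lower in the second. Scaled to the reads outside the genes that took over 1% of a library, 10.2% were higher and 14.5% lower for tumor with exercise. Relative to all genes the 10 members moved little, with a median of -1.33 below that of all genes under library-size scaling and -1.35 as deposited for exercise with tumor, and -0.94 and -0.96 for tumor with exercise.

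The scar collagens, which some of the member proteins bind or crosslink, had medians with the signs of the members' medians in each comparison. For tumor with exercise they were not divided as the members were, since Lox and Spp1 were past 2-fold higher and no collagen was. For exercise without tumor, 2 of the 10 collagen genes listed were past 2-fold higher and none lower, with a median of 0.63. For exercise with tumor, none was higher and 7 were lower, with a median of -2.32, or -1.83 with Col12a1, which had 0 reads in E+&T+, set at the floor of 3 reads. Col1a1, a chain of the main fibrillar collagen type I, had 522, 1361, 2907 and 275 reads in E-&T-, E+&T-, E-&T+ and E+&T+. Col3a1, of the collagen that accompanies it, had 1049, 2411, 4942 and 402. For these genes E+&T+ was the low library and E-&T+ the high one, and exercise with tumor gave -3.09 (-3.28 to -2.91) and -3.31 (-3.46 to -3.16). Col6a3, of a collagen around cells, was at -2.66 (-3.08 to -2.29). With tumor, 5 collagens were higher and none lower without exercise (median 1.10), and none was higher and 8 were lower with exercise (median -1.65).

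Of 28 further genes of activated fibroblasts, 10 were past 2-fold higher and 1 lower for exercise without tumor, none higher and 13 lower for exercise with tumor, 12 higher and 1 lower for tumor without exercise, and 5 higher and 6 lower for tumor with exercise. Their medians were 0.65, -0.99, 0.91 and -0.71 in that order. Timp1, an inhibitor of matrix metalloproteinases, had 18, 57, 922 and 150 reads in E-&T-, E+&T-, E-&T+ and E+&T+, a log2 fold change of 5.22 (4.63 to 6.06) with tumor in sedentary mice. Thbs1, a relative of Thbs4 that activates latent TGF-beta, had 17, 134, 105 and 86 reads, and so stayed high in E+&T+. The list was not uniform, and for tumor without exercise 20 of the 28 were above 0 and 8 below 0. Itga11 was the 1 past 2-fold lower there, with 21, 14, 0 and 1 reads in E-&T-, E+&T-, E-&T+ and E+&T+. Fap was at -0.08 (-0.68 to 0.51) in that comparison. Markers of quiescent fibroblasts moved less, with medians of 0.16, -0.45, 0.48 and -0.14. Among them Pdgfra, the receptor that marks cardiac fibroblasts, was higher with tumor in sedentary mice, by 1.28 (1.05 to 1.51), and lower with exercise in tumor-bearing mice, at -1.39 (-1.64 to -1.16). Mfap5, a microfibril protein, was at 1.89 and -0.99 in those comparisons, and Col15a1, a basement membrane collagen, at -0.97 and -1.38.

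Genes of the TGF-beta pathway moved little as a list. Of 25, of which 24 were kept, 2 were past 2-fold higher and none lower for exercise without tumor, none higher and 1 lower for exercise with tumor, 5 higher and 2 lower for tumor without exercise, and none higher and 3 lower for tumor with exercise. The medians were 0.18, -0.24, 0.18 and -0.13. Tgfb3, a ligand, had 155, 318, 77 and 95 reads in E-&T-, E+&T-, E-&T+ and E+&T+, lower in both tumor libraries. Ltbp4, which holds latent TGF-beta in the matrix, had 1290, 1399, 507 and 507 reads, and Tgfbi, a secreted target, 105, 152, 380 and 188. With tumor in sedentary mice, Tgfb3 and Ltbp4 were lower, at -1.38 (-1.80 to -0.98) and -1.72 (-1.88 to -1.58), and Tgfbi was higher, at 1.47 (1.16 to 1.80). Other ligands and storage proteins were higher there, with Tgfb2 at 0.82 (0.49 to 1.17) and Ltbp3 at 0.61 (0.42 to 0.79), or not separable from 0, with Ltbp1 at 0.18 (-0.08 to 0.44).

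A list of 12 genes held receptors and processing enzymes for the member proteins, and also Frzb, which is neither. With tumor in sedentary mice 7 of the 12 were past 2-fold higher and none lower (median 1.20). With exercise in tumor-bearing mice 5 were lower and none higher (median -0.94), and Frzb is counted in the 7 and in the 5. For exercise without tumor 2 were higher and none lower (median 0.35), and for tumor with exercise 2 were higher and 2 lower (median -0.51). Itga8, the integrin chain that binds tenascin C, fibronectin and osteopontin, had 7, 61, 97 and 35 reads in E-&T-, E+&T-, E-&T+ and E+&T+. Bmp1, the protease that activates lysyl oxidase and trims procollagen, had 69, 84, 213 and 33. Frzb, a secreted Wnt antagonist, had 157, 321, 718 and 138. All 3 were highest in E-&T+, as were most of the member genes.

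Markers of other cell types moved with several of these results. Macrophage markers, 14 in all, were past 2-fold higher in 11 cases and lower in none with tumor in sedentary mice (median 1.60), and lower in 9 and higher in 1 with exercise in tumor-bearing mice (median -1.42). For exercise without tumor 1 of the 12 kept was higher and none lower, and for tumor with exercise 3 were higher and 2 lower. Their summed level was 395, 476, 850 and 302 RPM in E-&T-, E+&T-, E-&T+ and E+&T+. General macrophage markers were not alike. Cd68 had 78, 96, 371 and 95 reads, whereas for tumor in sedentary mice Csf1r was at -0.11 (-0.24 to 0.02), Adgre1 at -0.37 (-0.97 to 0.22) and Fcgr1 at 0.01 (-0.72 to 0.76). Arg1, Marco and Gpnmb, genes of recruited or lipid-laden macrophages, had 444, 376 and 124 reads in E-&T+ and 0, 1 and 3 in E-&T-. In E+&T- they had 2, 0 and 24 reads, and in E+&T+ 32, 11 and 22. These are the libraries in which Spp1 and Fn1 were high or low, and the part of macrophages in those results was not tested.

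Of the 10 smooth muscle and pericyte markers, all read in every library, part moved with Acta2 and part did not. For exercise without tumor 5 were past 2-fold higher and none lower (median 0.63), for tumor without exercise 4 higher and none lower (0.25), and for exercise with tumor and for tumor with exercise none was higher and 2 were lower in each (-0.06 and -0.31). Cnn1, a calponin of contractile smooth muscle, had 35, 332, 217 and 168 reads in E-&T-, E+&T-, E-&T+ and E+&T+, and Tagln, which binds actin filaments, 131, 706, 783 and 603. Both, like Acta2, were lowest in E-&T-. The pericyte markers did not share that order. With exercise in tumor-free mice Rgs5 was at -0.41 (-0.52 to -0.29), Kcnj8 at -0.44 (-0.64 to -0.24), Notch3 at -0.14 (-0.48 to 0.20) and Pdgfrb at -0.13 (-0.39 to 0.12), and all 4 were below 0 for tumor without exercise as well. The summed level of the list was 582, 806, 581 and 431 RPM, and its part in the Acta2 result was not tested.

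Markers of valve and cartilage-like matrix were past 2-fold higher in 5 of the 8 kept, and lower in none, for exercise without tumor, with a median of 1.95, or 0.71 with genes at 0 reads set at the floor. Chad, a cartilage matrix protein, had 1, 91, 2 and 15 reads in E-&T-, E+&T-, E-&T+ and E+&T+, and Fmod, which binds collagen fibrils, 86, 297, 20 and 19. Sox9, the factor that drives cartilage genes, had 290, 386, 89 and 92. E+&T- was the high library for Chad and Fmod, while Sox9 differed from E-&T- by 0.07 (-0.15 to 0.30) and was low in both tumor libraries, and for tumor with exercise none of the 9 was higher and 6 were lower. Of the other comparisons, exercise with tumor had 2 of 6 kept higher and none lower, and tumor without exercise 2 of 4 higher and 2 lower. The summed level was 98.4, 164, 111 and 72.5 RPM, with 4, 0, 3 and 2 of the 9 markers at 0, and its part in the higher values of the members in E+&T- was not tested.

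Lung epithelium, fat and red cell markers had other patterns. The 6 lung epithelial markers summed to 78.7, 19.5, 63.0 and 143 RPM in E-&T-, E+&T-, E-&T+ and E+&T+, with Scgb1a1, a club cell protein, at 407, 108, 412 and 1123 reads. They were low in E+&T-, where most members were above E-&T-, and high in E+&T+, with a median of -2.07 for exercise without tumor, 1.84 for exercise with tumor, 0.37 for tumor without exercise and 3.52 for tumor with exercise. The 6 adipocyte markers, at 268, 68.8, 51.7 and 205 RPM, were past 2-fold lower in all 6 for exercise without tumor and for tumor without exercise, and higher in all 5 kept for exercise with tumor and in 4 of 5 for tumor with exercise. The 9 erythroid markers were past 2-fold higher in all 9 in both comparisons that use E+&T+ (medians 3.30 and 3.17) and had medians of 0.00 and 0.03 in the others. The part of these tissues in the members' values was not tested.

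**Figure D4:**
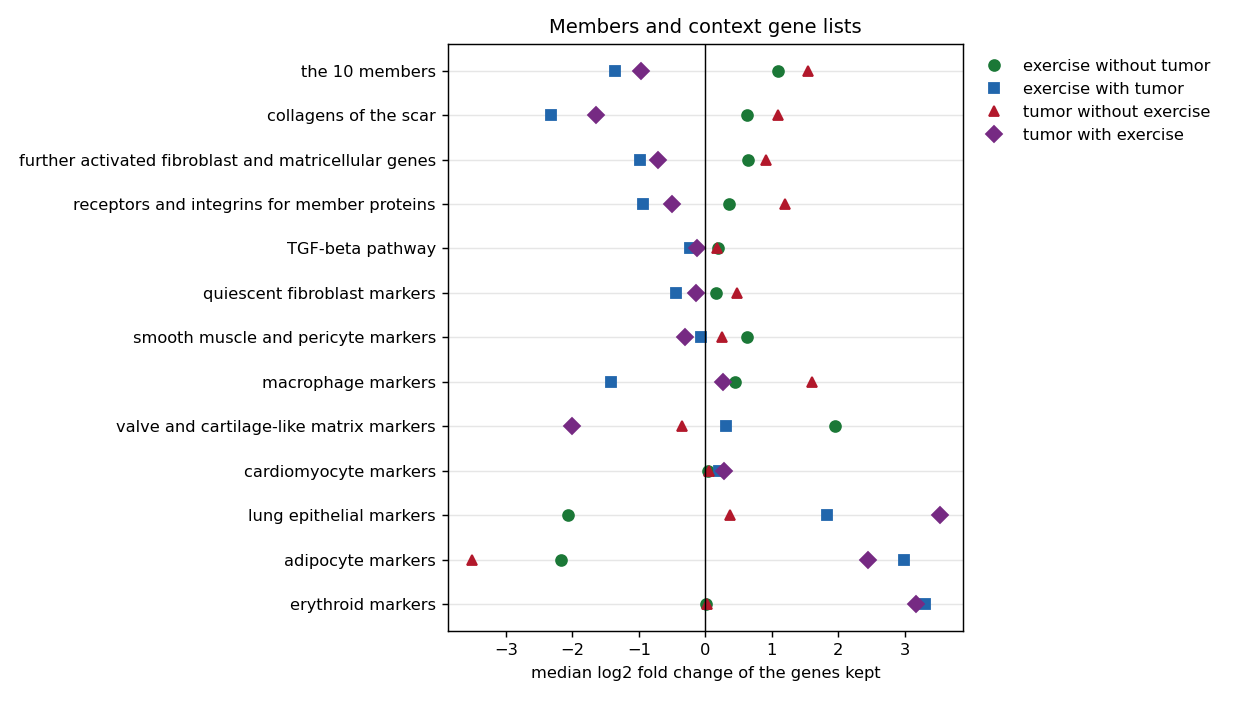
Median log2 fold change of the 10 members and of 12 gene lists in the 4 comparisons, over the genes kept in each. The members, collagens and further activated fibroblast genes are right of 0 for exercise without tumor and tumor without exercise. They are left of 0 for the comparisons with E+&T+. The quiescent fibroblast, TGF-beta pathway, receptor and integrin, and smooth muscle and pericyte lists have the same signs. Cardiomyocyte markers stay between 0.03 and 0.28 as deposited. With reads scaled to library size, their median was -0.38 for exercise with tumor and -0.44 for tumor with exercise.

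The median profile of the 10 genes, each centred on its own mean over the 4 libraries, was -0.56, 0.46, 1.01 and -0.37 in E-&T-, E+&T-, E-&T+ and E+&T+. Of 11624 other genes whose mean normalized read count reached 16, the nearest to it by Euclidean distance over the 4 libraries were Itga5 (0.326), the integrin chain of the fibronectin receptor, Alpl (0.333), an alkaline phosphatase, and Runx1 (0.355), a transcription factor. Lyz2 (0.376), a lysozyme of macrophages, Zfp932 (0.378), Cdca7 (0.392), Unkl (0.394), Mfap4 (0.406) and Fzd1 (0.411) were also among the nearest 10. The nearest gene to each single member was Hyou1 for Meox1 (0.198), Jdp2 for Acta2 (0.151), Lysmd1 for Postn (0.117), Col5a1 for Cthrc1 (0.340), Atcay for Tnc (0.556), Xlr for Fn1 (0.0762), Faf1 for Thbs4 (0.0521), Hmox1 for Spp1 (0.315), Csf2rb2 for Lox (0.322) and Cdk20 for Loxl2 (0.288). Itga5, Runx1, Lyz2, Mfap4 and Col5a1 also belong to the lists described above. With 4 points per gene such distances are a description of these libraries.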

How the data were processed

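Heart RNA of CDF1 mice was measured by mRNA-seq in 1 library per group. The authors prepared Lexogen QuantSeq 3′ libraries, aligned reads with Bowtie2 (mm10 per the labels), counted them with Bedtools and applied edgeR's quantile normalization to the counts. Their deposited values are log2(normalized read count + 1), without division by transcript length.

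Whole reads were recovered from these values with a model of relative library size and 1 dispersion for all genes (0.149). The largest difference between deposited and returned values was 0.000597 on the log2 scale. Recovered depth ran from 6595401 to 11546014 reads in 17174 genes with reads. The work was done in Python 3.11.15 (scipy 1.17.1, numpy 2.4.6, matplotlib 3.10.9 and pandas 2.3.3), and the scripts were tested on simulated data.

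Samples were grouped by their titles. Fold changes are differences of deposited values, with 95% Clopper-Pearson intervals of the read ratio. These intervals use only the reads of the libraries compared and so cover counting error only. Reads that are PCR copies are not independent molecules, so the intervals may be too narrow even for counting error. A call needed 2-fold and a normalized read count of 4 in at least 1 of 2 libraries. With 1 library per group no test was run. Alternatives were 3 other scalings, a pseudocount of 4, thinning to the smallest library, and other count minimums. The members and the lists were chosen with earlier results of these data known. Named from each list were up to 3 genes with the largest fold change among genes whose mean normalized read count reached 16, beside all 10 members and the genes of nearest profile, and some genes that this rule names are not reported here. Cd68, Col12a1, Csf1r, Adgre1, Fcgr1, Rgs5, Kcnj8, Pdgfrb, Tgfb2, Ltbp1, Ltbp3, Itga11 and Fap were named after their values were seen. Positions come from GENCODE M21. A planned comparison of member proteins was not made, as protein sequences were not used here.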

Additional observations from a re-analysis of the deposited data

Results flagged for a closer look

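For 5 of the 10 genes, the fold change of exercise pointed one way without tumor and the opposite way with tumor, and the counting interval excluded 0 in both comparisons. The share of all genes that meet the same rule was not computed, so this count does not set the members apart from other genes. The log2 fold change with tumor minus that without was -2.19 for Postn, -2.13 for Fn1, -1.80 for Lox, -3.28 for Loxl2 and -1.53 for Acta2. With 1 library per group, these differences were not tested, and a difference between libraries cannot be told apart from one between conditions.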

How the results depend on the processing

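No paired analysis was possible because each group has 1 library. Of the counts and medians of the members, 93 values under the alternatives moved less than the margin set for them, and 3 moved more, all with reads scaled to library size. The median for exercise with tumor was then -1.93 and that for tumor with exercise -1.68, and 1 gene rather than 2 was past 2-fold higher for tumor with exercise, Spp1 being at 0.95. Past 2-fold lower there were then 7 genes rather than 5, as Acta2 (-1.33) and Fn1 (-1.10) were added. Among single members and lists, 214 values stayed, 49 moved and 1 reversed, meaning a change of sign from a value past 2-fold. That was the median of the fast skeletal muscle markers for tumor with exercise, 1.49 as deposited and -0.74 scaled to library size. Smaller values that changed sign are not counted as reversed. Among them, scaled to library size, cardiomyocyte medians were -0.38 for exercise with tumor and -0.44 for tumor with exercise. For tumor with exercise the macrophage median was then -0.44 and the epicardial one -0.60. For exercise with tumor the valve median was -0.33 and the keratin one -0.44. Under that scaling Thbs4 was -0.20 and Meox1 0.03 for exercise with tumor, and Thbs4 0.09 for tumor with exercise. With a pseudocount of 4, Cthrc1 (0.89) and Tnc (0.90) were under 2-fold for exercise without tumor. The share of all genes past 2-fold depends on the count minimum. For exercise without tumor, 7.36% were higher and 8.93% lower with no minimum, 3.17% and 3.42% with a minimum of 16, 3.12% and 3.36% with a minimum of 4 in both libraries, and 4.23% lower with a pseudocount of 4. For exercise with tumor, 11.8% were higher with no minimum, 6.45% higher and 7.05% lower with a minimum of 16, and 5.87% and 6.71% with 4 in both libraries. The share higher for tumor without exercise was 10.1% with 4 in both libraries, and for tumor with exercise 7.14% with the same and 8.43% with 16. Depth limits Cthrc1 and Tnc most, at 2 to 15 and 4 to 78 reads.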

Other observations

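The paralogs of Acta2 differed in their order over the libraries. Actb and Actg1, the actins of the cytoskeleton, had that of Acta2, with 9661, 17472, 15881 and 11632 reads and 1024, 2203, 1663 and 1237 reads in E-&T-, E+&T-, E-&T+ and E+&T+. Acta1, the skeletal muscle actin that the heart also makes, had 12704, 17963, 5918 and 4307 reads in E-&T-, E+&T-, E-&T+ and E+&T+, lower in both tumor libraries. Actc1, the main cardiac actin, had 35636, 48035, 25747 and 28802 reads. Actg2, of visceral smooth muscle, had 1, 16, 33 and 26 reads, lowest in E-&T- as Acta2 was. The medians of the 5 paralogs were 0.51 for exercise without tumor, -0.12 for exercise with tumor, 0.32 for tumor without exercise and -0.46 for tumor with exercise, with the signs of Acta2.

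The 6 epicardial and mesothelial markers had medians of 0.03, -0.51, 0.43 and 0.11 in the same order. Msln, a mesothelial surface protein, had 53, 66, 169 and 55 reads, Upk1b 25, 19, 60 and 28, and Krt19 58, 45, 34 and 49. Keratin and other epithelial markers that carcinomas carry were scarce, at a summed 70, 82, 136 and 113 reads for 7 genes, with Krt8 at 16, 10, 34 and 17, Krt18 at 30, 30, 65 and 52 and Krt7 at 17, 35, 25 and 22. Their medians were -0.65, 0.12, 0.42 and 1.04 over the 4 or 5 genes kept. Fast skeletal muscle markers summed to 40, 33, 79 and 61 reads for 8 genes, with medians of -0.19, 0.24, 1.25 and 1.49. Scaled to library size, the median was -0.69 for exercise with tumor and -0.74 for tumor with exercise.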
